A study of Danio rerio with 48 samples.

Results

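The comparison set 4 brain libraries of exposed founder males against 4 of control males, 8 of the 48 libraries in the series, chosen by generation, sex and source code. All 8 fish were adult F0 zebrafish of the AB laboratory line, and each library held RNA of a whole brain. The exposed males (F0_M_PH, libraries 12, 17, 19 and 22) belonged to the permethrin arm, which per the series' title received 10 µg/L early in life. The control males (F0_M_SCA, libraries 2, 6, 10 and 17) carried no stated treatment. The code PH was read as permethrin and SCA as its control, which the labels do not spell out. The study asked whether brain transcripts of the founders and of their unexposed F1 and F2 descendants differed after that exposure. It profiled 4 libraries per sex and arm in 3 generations. Unless other libraries are named, p-values rest on the spread between fish within the 4 F0 groups, females included. The labels leave unsaid whether fish sharing a group also shared a tank or parents. If they did, they would not be independent replicates of the exposure.

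Permethrin is a pyrethroid insecticide that slows the closing of voltage-gated sodium channels, so neurons fire repeatedly while it is bound. The fish here were adults and the exposure was early in life. Brain cholesterol is made locally, largely by glia, because lipoproteins do not carry it across the blood-brain barrier, and its synthesis genes are regulated together by the sterol-sensing factor SREBP2. The brain of adult zebrafish keeps radial glia that line the ventricles, act as astrocytes and divide to give new neurons.

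The libraries of the 2 groups were alike in depth, with 7718837 to 8070777 counts in genes in PH males and 7898263 to 8072588 in SCA males. The transcripts of the mitochondrial genome took 10.3 to 12.7% of them in PH males and 10.5 to 11.6% in SCA males. Summed neuronal markers reached 20488 to 25532 CPM (read counts scaled to a common library total) in PH males and 20443 to 21653 in SCA males, 49 of 51 listed neuronal genes passed the filter on low counts, and 0 were at 0 in all 8 libraries. The lane recorded with each file was 4 for all PH males and 2 for all SCA males. Lane and group therefore cannot be told apart in any result below. All 8 F0 female libraries were on lane 4.

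Library PH 12 stood apart from the other 7. Its root-mean-square difference in log2 CPM from them was 0.76 to 0.94, while the other 3 PH libraries differed among themselves by 0.56 to 0.61, the SCA libraries among themselves by 0.52 to 0.64, and those 3 PH libraries from the SCA libraries by 0.52 to 0.67. Without PH 12, exposed and control males thus lay about as far from each other as fish of the same group. In PH 12, 2506 of 17737 genes of at least 1 CPM lay more than 2-fold below the median of the other libraries and 493 lay above it, against totals of 481 to 685 in the other 7. Library SCA 6 stood apart in muscle transcripts, as given with those genes. It also had the highest score for retina and lens genes, 1.79, with PH 19 near it at 1.52. Values without PH 12, without SCA 6 or without both are given beside the results that moved most.

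**Figure D1:**
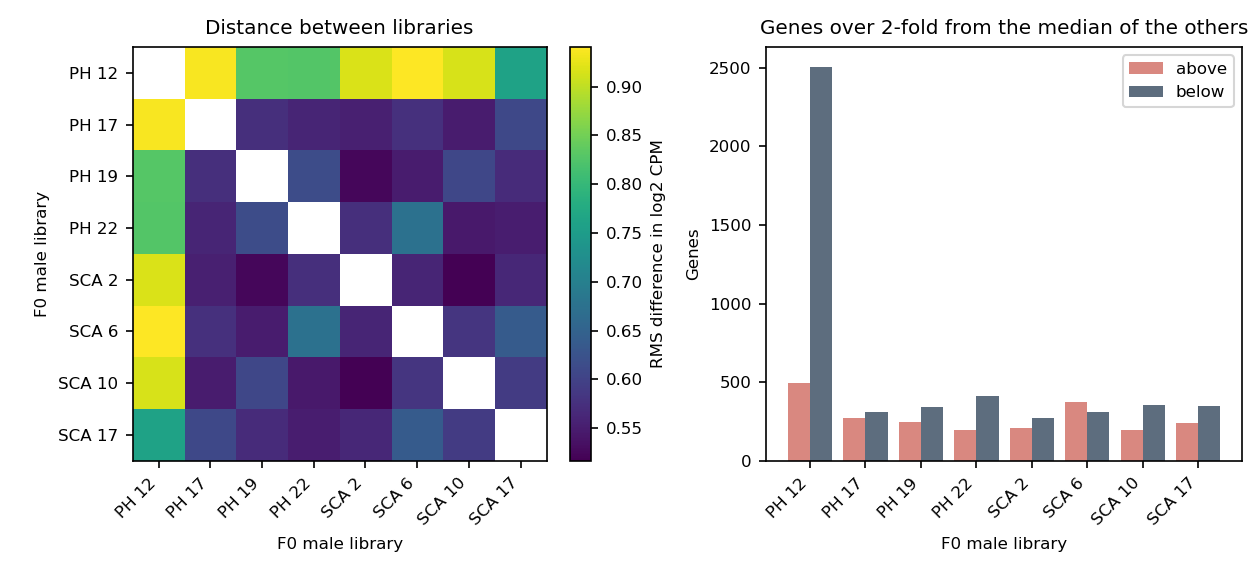
Left, root-mean-square difference in log2 CPM between each pair of F0 male libraries over 17737 genes of at least 1 CPM, exposed (PH) before control (SCA), with the diagonal left blank. Right, the number of genes per library more than 2-fold above or below the median of the other 7. PH 12 is the most distant library from every other one, and 2506 of its genes lie below.

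No single gene passed the test in edgeR or limma voom. Of 18081 genes tested with edgeR's quasi-likelihood method, 0 (0%) had a Benjamini-Hochberg adjusted p under 0.05, and the smallest adjusted p was 0.24. At an unadjusted p under 0.05 there were 557 genes higher in PH males (3.08%) and 539 lower (2.98%), and without PH 12 there were 347 higher and 479 lower. All 4 PH libraries lay above all 4 SCA libraries in 255 genes (1.41%) and below them in 354 (1.96%). limma voom called 0 genes (0%), and DESeq2 called 11 of 18021 (0.061%). The genes called by DESeq2 with higher means in PH males were prss56, SOCS3 (ENSDARG00000025428), DDIT4, SYNE1 and si:ch1073-44m10.1. Those with lower means were krt8, grhl2a, AOC3, SC5D, RFX4 and SMO. The call of si:ch1073-44m10.1 rests on 37 reads in PH 12 and 51 in PH 17. It had 0 reads in PH 19, PH 22 and every SCA male, and its unadjusted p in edgeR was 0.073. Over all tested genes the median log2 fold change was -0.01, and the middle of the distribution, from its 5th to its 95th percentile, ran from -0.56 to 0.45.

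Because nothing passed in edgeR, the paragraphs below describe levels. Genes are named by fixed rules on p, fold change and list membership, and only genes whose groups do not overlap were eligible, except the DESeq2 calls, enzymes of sterol synthesis, genes of the sodium channel list and genes marked as named after values were seen. "Higher" and "lower" refer to means of PH males relative to SCA males. Every count of list members below has the same background over all tested genes. At an unadjusted p under 0.05 it was 3.08% higher and 2.98% lower, and without overlap 1.41% higher and 1.96% lower.

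The gene of smallest p was prss56, a secreted serine protease that in mouse marks Müller glia and adult neural stem cells. It had 3.0, 2.09, 1.78 and 1.52 CPM in PH males 12, 17, 19 and 22, against 0.503, 0.373, 0.485 and 0.388 in SCA males 2, 6, 10 and 17. These are 12 to 20 reads in each PH library and 3 or 4 in each SCA library, so the separation is complete but rests on few reads. The log2 fold change was 2.21 ± 0.36 (SE; adjusted p = 0.24 in edgeR), and 2.0 without PH 12. In F0 females the fold change was 0.08 ± 0.31, with 1.14 to 2.75 CPM over all 8 libraries, a range that overlapped that of the exposed males.

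In the stress axis and glucocorticoid list, 18 of 32 tested genes had log2 fold changes above 0, and the list median was 0.06, against -0.01 for all genes. It held 4 genes higher and 1 lower without overlap, where the shares over all tested genes were 1.41% and 1.96%. DDIT4, an inhibitor of the growth kinase mTORC1 that is induced by stress and glucocorticoids, stood at 49.8, 38.6, 32.8 and 48.3 CPM in PH males, against 19.9, 21.8, 20.7 and 23.3 in SCA males. The lowest PH library was above the highest SCA library, and the log2 fold change was 0.98 ± 0.23 (adjusted p = 0.663 in edgeR). CEBPD, a transcription factor of the acute-phase response, had 26.5, 24.3, 12.7 and 16.2 CPM in PH males, against 6.67, 9.71, 8.61 and 8.41 in SCA males, a log2 fold change of 1.25 ± 0.39. tsc22d3, the glucocorticoid-induced leucine zipper gene, ranged from 123 to 231 CPM in PH males and from 82.8 to 114 in SCA males. Its log2 fold change of 0.63 ± 0.19 was 0.38 without PH 12, the library at 231 CPM. FKBP5, a co-chaperone and a sensitive target of the glucocorticoid receptor, had an unadjusted p above 0.05 and was named after values were seen. It lay at 217, 219.9, 212 and 281 CPM in PH males, against 112, 45.6, 152 and 68.5 in SCA males, a log2 fold change of 1.3 ± 0.76. The groups did not overlap, while the SCA males varied widely.

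NR3C2, the mineralocorticoid receptor gene and the member lower without overlap, was named after values were seen and differed by -0.59 ± 0.30, and by -0.31 without PH 12. At an unadjusted p under 0.05, 5 genes of the list were higher and 1 was lower, and without PH 12 the counts were 3 and 0. With all 8 males, 3.08% of all tested genes were higher and 2.98% lower at that p. On the scaling over all 48 libraries, the 8 control males of F1 and F2 held 24.5 to 49.1 CPM of DDIT4, where F0 PH males held 32.0 to 50.1 and F0 SCA males 19.6 to 22.6. For tsc22d3 those 8 fish held 123 to 219 CPM, where F0 PH males held 121 to 233 and F0 SCA males 80.6 to 110.4. In both genes every F0 SCA male lay below all 8 of the other control males. CEBPD did not separate in this way. For CEBPD those 8 fish held 6.01 to 31.1 CPM, spanning F0 SCA males (6.56 to 9.46) and F0 PH males (12.4 to 26.7). In F0 females the same list had 0 genes at that p in either direction and a median of 0.07, with log2 fold changes of 0.30 ± 0.22 for DDIT4 and 0.08 ± 0.37 for CEBPD.

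Single genes of growth arrest and cytokine feedback, drawn from several lists or from none, differed in both directions. cdkn1a, which encodes the cell-cycle inhibitor p21, had 2.7, 4.18, 2.80 and 2.4 CPM in PH males, against 1.13, 1.74, 1.33 and 0.906 in SCA males, with no overlap and a log2 fold change of 1.23 ± 0.31 (adjusted p = 0.663 in edgeR). GADD45G (ENSDARG00000019417), a stress-induced brake on growth counted with the immediate-early genes, stood at 24.3, 19.8, 20.2 and 19.3 CPM in PH males, against 12.3, 16.3, 15 and 13.5 in SCA males, a log2 fold change of 0.55 ± 0.18. The related growth-arrest genes with the symbol GADD45A, listed with DNA methylation enzymes, lay in opposite directions without overlap. GADD45A (ENSDARG00000104571) differed by 0.55 ± 0.22, and by 0.34 without PH 12, and GADD45A (ENSDARG00000043581), named after values were seen, by -0.61 ± 0.33. SOCS3 (ENSDARG00000025428), a feedback inhibitor of cytokine receptors, stood at 24.3, 21.0, 7.88 and 18.8 CPM in PH males, against 2.77, 5.35, 8.12 and 6.08 in SCA males. Its groups overlapped, since PH 19 lay below SCA 10, and the log2 fold change was 1.68 ± 0.36 (adjusted p = 0.556 in edgeR). SOCS1, a close relative named after values were seen, also overlapped and differed by 1.35 ± 0.51. nfkbiab, an inhibitor of NF-kappa-B, ranged from 83.9 to 108 CPM in PH males and from 42.1 to 69.2 in SCA males, a log2 fold change of 0.81 ± 0.29. TRIB3, a pseudokinase of the integrated stress response, ranged from 15.6 to 23.8 CPM in PH males and from 11.8 to 14.1 in SCA males. TRIB3 belongs to the heat shock and unfolded protein list. In the cytokine list, the receptor gene il6r and the transcription factor stat5a had lower means, at log2 fold changes of -0.89 ± 0.31 and -1.14 ± 0.48.

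The cytokine and inflammation list as a whole had a median of 0.01 over 30 tested genes, with 3 higher and 2 lower at an unadjusted p under 0.05. Immediate-early genes, which neurons induce on firing, had a median of 0.13 over 52 genes, with 5 higher and 1 lower at that p and 1 in each direction without overlap. The scores of that list, defined as the median over its tested members of log2 CPM minus the mean of the 8 males, were 0.44, -0.02, 0.07 and 0.05 in PH males, against -0.11, -0.26, -0.36 and 0.32 in SCA males. They overlapped through SCA 17, and without PH 12 the list had 2 genes higher and 1 lower and a median of 0.05. Without both PH 12 and SCA 6 the median was -0.04. In F0 females the median of the list was -0.11, with 0 genes higher and 3 lower at an unadjusted p under 0.05. The shares over all genes in females were 2.12% and 2.98%.

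The remaining genes of smallest p with higher means were of mixed function. GUSB, the lysosomal beta-glucuronidase, stood at 44.8, 67.3, 29.7 and 35.7 CPM in PH males, against 25.7, 26.8, 24.6 and 19.3 in SCA males, a log2 fold change of 0.88 ± 0.21. GANC, a neutral alpha-glucosidase, had 26.1, 13.0, 10.7 and 16.4 CPM in PH males, against 9.81, 7.59, 6.18 and 7.38 in SCA males, a log2 fold change of 1.09 ± 0.27. HIVEP1, a zinc-finger transcription factor, had 228, 235, 230.0 and 235 CPM in PH males, against 184, 165, 190.4 and 191 in SCA males. Groups did not overlap for any of these, and edgeR adjusted p-values were 0.663 for each. Smaller differences without overlap were those of SYNE1, which encodes the nuclear envelope protein nesprin-1, at 0.26 ± 0.06, of the sorting adaptor PACS1 at 0.39 ± 0.10 and of the inositol phosphate kinase IP6K2 (ENSDARG00000019613) at 0.50 ± 0.12. Larger ones came with low levels. sp100.2, a relative of the nuclear-body protein gene SP100, had 3.90, 1.23, 4.19 and 1.26 CPM in PH males, against 0.503, 0.622, 0.364 and 0.776 in SCA males. CHRNB3 (ENSDARG00000038508), a subunit of nicotinic acetylcholine receptors, had 3.60, 2.7, 3.43 and 2.65 CPM in PH males, against 1.26, 0.871, 1.94 and 1.29 in SCA males, a log2 fold change of 1.19 ± 0.33.

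Among genes with lower means, large differences likewise came with low levels. LACC1, an enzyme of purine metabolism in macrophages of mammals, had 0.300, 0.614, 0.127 and 0.505 CPM in PH males, against 3.65, 1.62, 1.58 and 0.776 in SCA males, a log2 fold change of -2.24 ± 0.50 (adjusted p = 0.663 in edgeR). COL4A4, a basement membrane collagen gene, differed by -2.23 ± 0.59, ADAMTS8 (ENSDARG00000007709), a secreted protease, by -1.93 ± 0.57 and cox4i1l, a relative of the respiratory subunit gene cox4i1, by -1.63 ± 0.50. Each of these was below 5 CPM in every library.

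**Figure D2:**
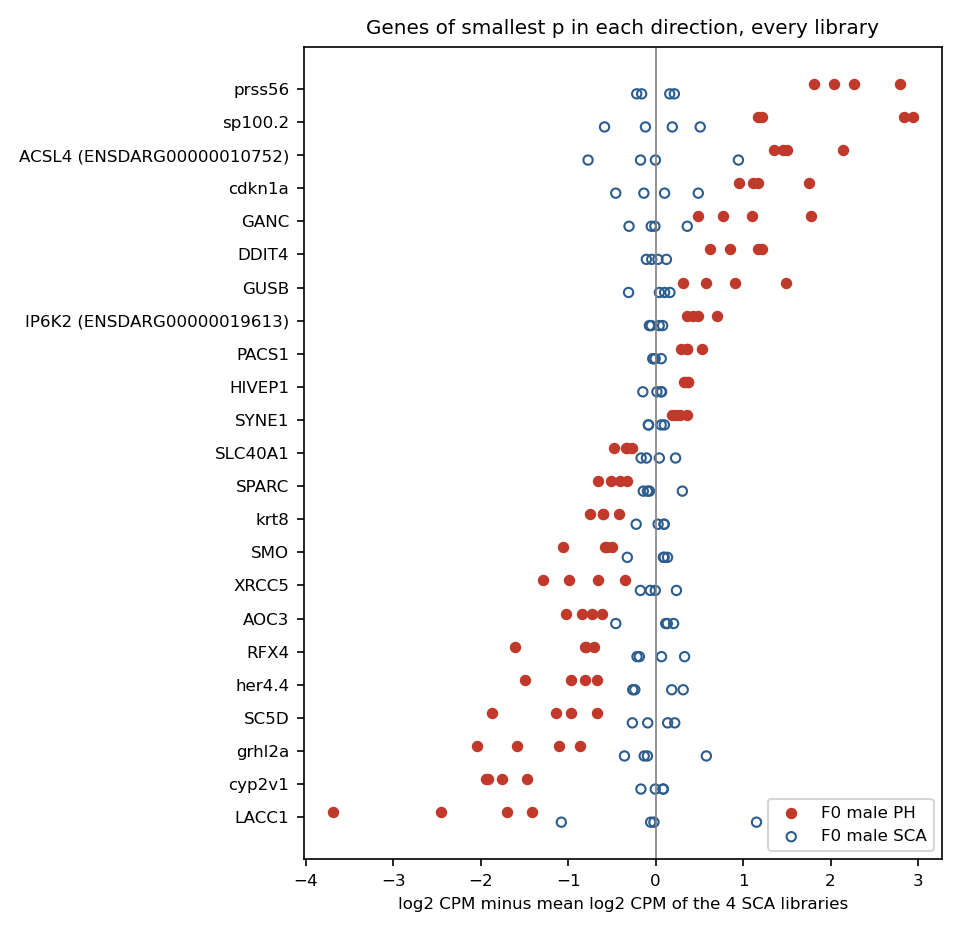
Each row is a gene, 11 of the 12 of smallest p with higher means in F0 PH males (upper rows) and the 12 with lower means (lower rows). Filled points are the 4 PH libraries and open points the 4 SCA libraries, as log2 CPM minus the SCA mean of log2 CPM. By the rule of choice no filled point overlaps the open ones of its row. Differences range from 0.26 in SYNE1 to 2.21 in prss56 above and to -2.24 in LACC1 below, as log2 fold changes.

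Enzymes of cholesterol synthesis were the list with the lowest median of all 52. Of 24 tested enzymes 20 had log2 fold changes below 0, with a median of -0.50, against -0.01 for all genes. At an unadjusted p under 0.05, 12 enzymes were lower and 0 higher, and without overlap 12 were lower and 1 was higher. The background for genes lower without overlap was the 1.96% given above. None passed adjustment over all genes in edgeR or limma voom, while SC5D passed in DESeq2 (adjusted p = 0.0171). List scores were -0.07, -0.21, -0.23 and -0.20 in PH males 12, 17, 19 and 22, against 0.17, 0.17, 0.22 and 0.36 in SCA males 2, 6, 10 and 17. Every exposed male lay below every control male, and the median was -0.48 without PH 12 and -0.53 without SCA 6. Over all settings tried the median lay between -0.56 and -0.47. Whether fewer cells making sterols or less RNA per cell was present cannot be told apart in whole brain, for this list or any other.

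The lower enzymes ran from the start of the pathway to its end. At the start, HMGCS1, which makes HMG-CoA, stood at 32.7, 25.4, 32.8 and 30.9 CPM in PH males, against 49.1, 54.5, 48.3 and 60.2 in SCA males. The log2 fold change was -0.80 ± 0.24 (adjusted p = 0.734 in edgeR), and the highest PH male lay well below the lowest SCA male. The thiolase ACAT2 differed by -0.23 ± 0.11, the decarboxylase MVD by -0.63 ± 0.25 and the isomerase IDI1 by -0.54 ± 0.22.

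At the entry to the sterol branch, SQLE (ENSDARG00000079946), squalene epoxidase, stood at 4.50, 2.46, 4.45 and 5.94 CPM in PH males, against 13.8, 10.5, 8.85 and 12.9 in SCA males, a log2 fold change of -1.41 ± 0.41. The other gene with that symbol (ENSDARG00000063319) lay the opposite way, at 2.21 to 3.28 CPM in PH males and 1.46 to 1.68 in SCA males, a log2 fold change of 0.86 ± 0.45. If reads of these copies were split unevenly by the counting, both values would be affected, so each is uncertain. In the demethylation steps MSMO1 differed by -0.57 ± 0.21, NSDHL by -0.93 ± 0.37 and HSD17B7 by -0.68 ± 0.17.

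In the last steps, the isomerase EBP differed by -0.70 ± 0.21. SC5D, the lathosterol oxidase, had the smallest p of the pathway. It stood at 3.60, 8.23, 6.73 and 5.94 CPM in PH males, against 12.3, 14.4, 10.9 and 15.3 in SCA males, a log2 fold change of -1.10 ± 0.23 (adjusted p = 0.556 in edgeR) and of -0.92 without PH 12. Enzymes that overlapped between the groups included FDFT1, LSS, CYP51A1, DHCR7, TM7SF2, LBR, MVK, PMVK, FDPS and GGPS1, with log2 fold changes from -0.67 in LSS to 0.07 in MVK. Of these, FDPS and GGPS1 make prenyl groups that also serve purposes other than sterols.

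**Figure D3:**
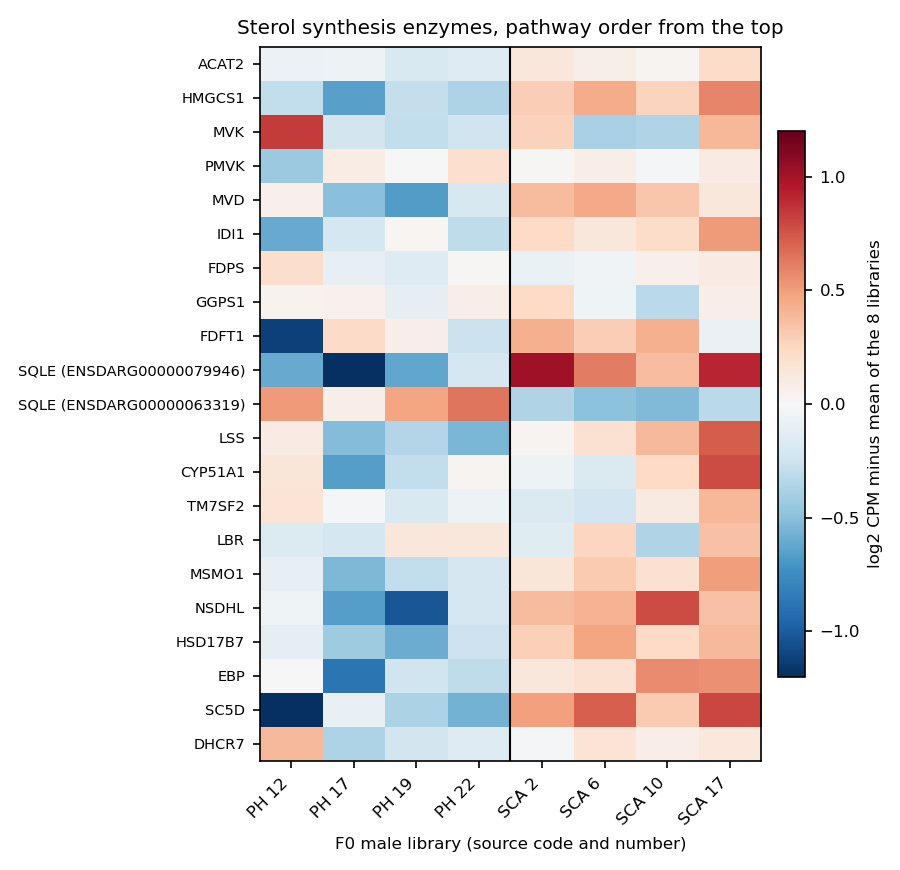
Log2 CPM of 21 of the 24 sterol synthesis enzymes in each F0 male library, minus the mean of the 8 libraries (colour), with exposed males (PH) left of the line and control males (SCA) right of it. Rows follow the pathway from the top. Most rows are blue on the left and red on the right, and SQLE (ENSDARG00000063319) is reversed, with a log2 fold change of 0.86.

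The sensors and carriers of sterol did not share the shift as a group. Among 17 tested genes of sterol sensing and uptake the median was -0.06, with 3 lower and 1 higher at an unadjusted p under 0.05 and 4 lower without overlap. MYLIP (ENSDARG00000008859), which marks the LDL receptor for degradation, was the higher one at 0.38 ± 0.15, with overlap, and was named after values were seen. ldlrb, an LDL receptor gene, differed by -0.42 ± 0.16 and NPC2 (ENSDARG00000090912), which moves cholesterol out of lysosomes, by -0.26 ± 0.08, both without overlap. insig1, the sterol sensor that holds SREBP back, was named after values were seen and ranged from 70.8 to 79.3 CPM in PH males and from 80.4 to 103 in SCA males. Of 19 genes of cholesterol efflux and oxysterols, 0 were past that p in either direction, with a median of 0.05 that was -0.06 without both PH 12 and SCA 6. Among 24 fatty acid genes the median was -0.04, the elongases ELOVL2 and ELOVL5 differed by -0.46 ± 0.15 and -0.54 ± 0.17 without overlap, and ACSL4 (ENSDARG00000010752), which activates arachidonic acid, by 1.5 ± 0.39. ACSL4 lay at 11.2, 6.51, 6.99 and 7.20 CPM in PH males, against 2.26, 1.49, 2.55 and 4.92 in SCA males.

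Levels of these enzymes in other fish were read on a scaling over all 48 libraries, a view chosen after values were seen. In 11 of the 12 enzymes past the unadjusted p, the median of the 8 F1 and F2 control males lay nearer to the F0 PH mean than to the F0 SCA mean, on log2(CPM + 1). For SC5D those 8 control males ranged from 2.12 to 9.0 CPM, where F0 PH males ranged from 3.62 to 8.20 and F0 SCA males from 10.7 to 14.8. For HMGCS1 they ranged from 22.0 to 39.3 CPM, with F0 PH males at 25.3 to 32.9 and F0 SCA males at 47.3 to 58.4. For both enzymes every F0 SCA male lay above all 8 of the other control males. Of all 255 genes higher without overlap, the median of F1 and F2 control males lay nearer to the PH mean in 188, and of the 354 lower ones in 216. The 4 F0 control females, of the same generation as the PH males and on the same lane, lay nearer to the PH mean in 125 of the 255 higher genes, 203 of the 354 lower ones and 7 of the 12 enzymes. The 4 F0 PH females, on that lane too, lay nearer to the PH mean in 158 of the 255, 241 of the 354 and 11 of the 12. Of the 24 genes named for the smallest p, F1 and F2 control males lay nearer to the PH mean in 13. F0 control females did so in 8 of the 24 and F0 PH females in 15. All these gene sets were chosen by the values of the F0 males. The share over all tested genes was not computed, so the counts have no background. The 8 F1 and F2 control males are of other generations, none was recorded on lane 2, and the F1 files give no lane. The part of generation and lane in the pattern was not tested.

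In F0 females the cholesterol list had a median of -0.23, with 5 enzymes lower and 1 higher at an unadjusted p under 0.05, and its scores overlapped, from -0.30 to 0.20 in PH females and from -0.34 to 0.48 in SCA females. The background in females was 2.12% of genes higher and 2.98% lower at that p. SQLE (ENSDARG00000079946) differed by -1.27 ± 0.42 in females, NSDHL by -0.95 ± 0.38 and SC5D by -0.53 ± 0.23. None of the 24 enzymes had an unadjusted p under 0.05 for the difference between the sexes.

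Epithelial genes included the gene of smallest p among those with lower means. krt8, a keratin of simple epithelia, had 61.8, 69.9, 61.6 and 55.6 CPM in PH males, against 100.0, 100.2, 95.4 and 80.2 in SCA males, a log2 fold change of -0.59 ± 0.11 (adjusted p = 0.351 in edgeR). grhl2a, a transcription factor of epithelial identity, had 4.95, 2.58, 5.84 and 3.54 CPM in PH males, against 8.30, 9.96, 15.9 and 9.71 in SCA males, a log2 fold change of -1.38 ± 0.27 (adjusted p = 0.556 in edgeR). Groups overlapped in neither gene, and without PH 12 the values were -0.58 for krt8 and -1.45 for grhl2a. PERP, a desmosome protein gene, differed by -0.44 ± 0.13. The epithelial list had a median of -0.13 over 32 tested genes, with 4 lower and 0 higher at an unadjusted p under 0.05 in all males as well as without PH 12. The median was -0.04 without SCA 6 and -0.01 without both libraries, near that of all genes, while krt8 and grhl2a differed by -0.55 and -1.41 without SCA 6. Its summed level was 358 to 416 CPM in PH males and 399.9 to 504 in SCA males, and 2 of its 64 listed genes were at 0 in every male library. In females krt8 differed by -0.33 ± 0.11, the same direction.

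Genes of vessels and of the matrix around them also had lower means. AOC3, an amine oxidase of vessel walls, had 19.3, 22.6, 17 and 21.0 CPM in PH males, against 37.5, 38.0, 39.9 and 25.2 in SCA males, a log2 fold change of -0.81 ± 0.17 (adjusted p = 0.556 in edgeR). The endothelial and barrier list had a median of -0.32 over 40 tested genes, 32 of them below 0. It had 5 lower and 0 higher at an unadjusted p under 0.05 and 2 lower without overlap. Of all tested genes 2.98% were lower and 3.08% higher at that p, and 1.96% were lower without overlap. The endothelial median was -0.36 without PH 12 and -0.29 without SCA 6. SLC16A1 (ENSDARG00000068572), a lactate carrier of the barrier, differed by -1.16 ± 0.42 and by -0.85 without PH 12. KDR, a receptor for vascular growth factor named after values were seen, overlapped between groups and differed by -0.89 ± 0.36. Summed endothelial markers came to 455 to 526 CPM in PH males and 515 to 661 in SCA males. Females had a median of -0.12 for this list.

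Among 45 tested genes of extracellular matrix and meninges, 35 had fold changes below 0 and the median was -0.19. At an unadjusted p under 0.05, 6 were lower and 0 higher, where the shares over all tested genes were 2.98% and 3.08%. SPARC, a collagen-binding matrix protein gene, had 70.0, 61.7, 55.5 and 66.3 CPM in PH males, against 83.5, 108, 79.6 and 82.2 in SCA males, a log2 fold change of -0.48 ± 0.11 (adjusted p = 0.663 in edgeR). The fibrillar collagen genes col1a1a and COL1A2 differed by -0.96 ± 0.30 and -0.72 ± 0.26, but by -0.48 and -0.35 without SCA 6, in which they reached 25.1 and 19.9 CPM. ALDH1A2, which makes retinoic acid in the meninges, differed by -0.42 ± 0.14. The cartilage and bone list had a median of -0.11 over 22 tested genes (-0.20 without PH 12), with 3 lower without overlap. Of these COL11A2, a collagen of cartilage, was low in both groups. It had 0.450, 0.491, 0.508 and 0 CPM in PH males, against 4.4, 3.73, 0.606 and 3.11 in SCA males, with at most 4 reads in a PH library and 5 to 35 in an SCA library.

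Radial glia and progenitor genes were mostly lower, prss56 apart. Of 51 tested genes of the radial glia and astroglia list 42 had fold changes below 0, with a median of -0.19. At an unadjusted p under 0.05, 14 were lower and 2 higher, and 7 were lower and 1 higher without overlap. Over all tested genes the shares were 2.98% lower and 3.08% higher at that p, and 1.96% and 1.41% without overlap. Without PH 12 the counts at that p were 12 and 2, and without SCA 6 they were 6 and 2. List scores were -0.05, -0.11, -0.08 and -0.10 in PH males, against 0.18, 0.20, 0.06 and 0.00 in SCA males. They did not overlap, though SCA 17 lay close to the exposed males. Summed levels were 9195 to 9655 CPM in PH males and 9889.7 to 11549 in SCA males.

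her4.4, a Hes-family repressor that Notch induces in progenitors, had 5.25, 5.90, 6.48 and 3.66 CPM in PH males, against 11.7, 8.59, 8.73 and 12.8 in SCA males. The log2 fold change was -0.97 ± 0.23 (adjusted p = 0.663 in edgeR), against -0.07 ± 0.23 in females. her4.2, a near copy in the same family, differed by -0.38 ± 0.15 without overlap, and reads shared by her4 copies make both values uncertain. SOX2, a stem-cell transcription factor named after values were seen, stood at 65.8, 65.5, 67.7 and 56.8 CPM in PH males, against 83.4, 83.0, 69.2 and 71.8 in SCA males, a log2 fold change of -0.27 ± 0.11. SLC4A4 (ENSDARG00000013730), a bicarbonate transporter of astroglia, differed by -0.30 ± 0.12. VIM (ENSDARG00000010008), vimentin, ID1 and MSI1 were the remaining members lower without overlap, at -0.34 ± 0.15, -0.41 ± 0.20 and -0.18 ± 0.09, and were named after values were seen. Without SCA 6 the value for ID1 was -0.24.

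SMO and RFX4 belong to signalling that patterns and maintains neural progenitors. SMO, the transducer of Hedgehog signals, had 7.80, 11.1, 11.4 and 10.9 CPM in PH males, against 17.2, 17.8, 17.3 and 12.9 in SCA males, a log2 fold change of -0.66 ± 0.14 (adjusted p = 0.556 in edgeR). RFX4, a transcription factor of ciliated neural progenitors and astroglia, had 4.05, 7.62, 7.11 and 7.07 CPM in PH males, against 13.0, 15.6, 10.7 and 10.9 in SCA males, a log2 fold change of -0.95 ± 0.20 (adjusted p = 0.556 in edgeR). In both genes the groups did not overlap and PH 12 was the lowest library, and without it the fold changes were -0.55 and -0.78. Females had 0.06 ± 0.14 for SMO and -0.12 ± 0.20 for RFX4. The 8 F1 and F2 control males held 6.01 to 11.6 CPM of SMO and 3.53 to 8.12 of RFX4 on the scaling over all 48 libraries, where F0 SCA males held 12.6 to 17.3 and 10.4 to 15.2.

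Cell-cycle genes, which in adult brain mark dividing progenitors, had a median of -0.20 over 46 tested genes. At an unadjusted p under 0.05, 9 were lower and 0 higher, and 5 were lower without overlap. Of all tested genes 2.98% were lower and 3.08% higher at that p, and 1.96% were lower without overlap. mki67, the proliferation antigen Ki-67, had 3.75, 5.53, 7.37 and 6.95 CPM in PH males, against 11.7, 13.2, 11.8 and 7.38 in SCA males, a log2 fold change of -0.89 ± 0.30 (adjusted p = 0.734 in edgeR). The mitotic kinase aurka differed by -1.41 ± 0.38 and the mitotic motors kif11 and KIF23 by -1.07 ± 0.38 and -1.12 ± 0.40. List scores overlapped, at -0.19, -0.25, -0.12 and 0.07 in PH males and -0.06, 0.28, 0.25 and -0.02 in SCA males. In females the median was -0.18, with 2 genes lower at that p. XRCC5, the DNA end-joining protein Ku80, is no member of the list and stood at 7.95, 5.16, 9.91 and 6.32 CPM in PH males, against 14.8, 12.1, 11.2 and 12.6 in SCA males, a log2 fold change of -0.79 ± 0.18.

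Myelin and oligodendrocyte genes had a median of -0.15 over 35 tested genes, with 2 lower and 0 higher at an unadjusted p under 0.05, and -0.16 in females. ENPP6, a marker of oligodendrocytes that are starting to myelinate, had 10.5, 12.4, 13.0 and 12 CPM in PH males, against 20.9, 14.4, 16.7 and 16.4 in SCA males, a log2 fold change of -0.52 ± 0.17. Microglia genes had a median of -0.02 over 27 genes and leukocyte genes of -0.01 over 14. In those lists at most 1 gene was past that p in either direction.

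Genes that metabolise foreign compounds were examined because permethrin is cleared by esterases and cytochromes P450. The list had a median of -0.16 over 52 tested genes, with 8 lower and 1 higher at an unadjusted p under 0.05 and 6 lower without overlap. Of all tested genes 2.98% were lower and 3.08% higher at that p, and 1.96% were lower without overlap. The median was -0.10 without SCA 6. In females the list had a median of -0.13, with 9 lower and 1 higher at that p. The shares over all genes in females were 2.98% and 2.12%. List scores were 0.06, -0.03, -0.11 and -0.03 in PH males, against 0.13, 0.10, 0.08 and 0.08 in SCA males, and did not overlap. cyp2v1, a P450 of the CYP2 family, had 0.900, 1.23, 0.889 and 1.01 CPM in PH males, against 3.40, 3.61, 3.03 and 3.62 in SCA males. Each group was tight, the log2 fold change was -1.74 ± 0.36 (adjusted p = 0.556 in edgeR), and counts were 6 to 10 per PH library and 25 to 29 per SCA library. Females differed in the same direction, by -1.17 ± 0.36. cyp2ad3, of the same family, had 6.90, 11.3, 6.99 and 7.33 CPM in PH males, against 11.6, 11.8, 13.0 and 11.8 in SCA males, a log2 fold change of -0.56 ± 0.17, and -0.90 ± 0.17 in females. The electron donor of these enzymes, POR (ENSDARG00000059035), differed by -0.26 ± 0.10 without overlap. So did cyp2aa7 at -0.84 ± 0.31 and, named after values were seen, the dioxin receptor ahr2 at -0.27 ± 0.10 and the efflux pump abcg2a at -0.53 ± 0.23. Members of the CYP2 family are similar in sequence, so their counts are uncertain.

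Sodium channels are the molecular target of permethrin, and none of their tested genes stood apart between the groups. The list had 16 tested genes, made up of 4 alpha subunits, which form the pore, 6 beta subunits, 5 genes of FGF12, FGF13 and FGF14, cytosolic proteins that bind these channels, and the leak channel NALCN. Of the 16, 0 had an unadjusted p under 0.05 and 0 lay without overlap. Over all tested genes 3.08% were higher and 2.98% lower at that p. Without overlap the shares were 1.41% higher and 1.96% lower. In a list of 16 genes a count of 0 is near those shares. The 10 alpha and beta subunits had a median of 0.00, with 5 above 0, and summed to 735 to 1073 CPM in PH males and 913 to 972 in SCA males. The 5 FGF genes had a median of 0.08. The 4 alpha subunits all had fold changes below 0, with a sum of 255 to 431 CPM in PH males and 369 to 399.8 in SCA males. SCN8A (ENSDARG00000005775), which encodes the main channel of axon initial segments, had 177, 262, 256 and 238 CPM in PH males, against 247, 246, 249 and 227 in SCA males, a log2 fold change of -0.05 ± 0.10 and of 0.06 without PH 12. scn1lab had 51.1, 105, 97.3 and 88.0 CPM in PH males, against 92.1, 85.0, 89.4 and 95.0 in SCA males. In both genes PH 12 was the lowest of the 8 libraries and the others overlapped. Beta subunits, which set channel gating and placement, differed by 0.10 ± 0.36 in SCN2B and 0.07 ± 0.28 in SCN3B. NALCN differed by 0.11 ± 0.09, and by 0.18 without PH 12. Standard errors of the 16 genes ran up to 0.51, in scn12aa, so a smaller difference in the less precise genes was not detectable rather than absent.

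In other channel and transmitter lists PH 12 had the lowest score of all 8 males. Scores of potassium channel genes were -0.67, 0.29, 0.05 and 0.10 in PH males, against 0.15, 0.06, 0.12 and -0.04 in SCA males. Those of GABA genes were -0.77, 0.29, -0.01 and 0.23 in PH males, against 0.15, 0.13, 0.12 and -0.14 in SCA males. Medians over tested members were -0.02 for potassium channels, -0.02 for calcium channels and -0.02 for the GABA system, and 0.07, 0.10 and 0.08 without PH 12. Within the GABA list, ABAT, the enzyme that breaks GABA down, was lower in every exposed male. It had 403, 530.4, 567 and 472 CPM in PH males, against 704, 770.3, 816 and 579 in SCA males, a log2 fold change of -0.54 ± 0.14 (adjusted p = 0.663 in edgeR) and of -0.45 without PH 12. SLC6A11, a GABA carrier of astroglia named after values were seen, lay at 18.9, 73.3, 43.5 and 59.0 CPM in PH males, against 89.6, 95.8, 102 and 54.1 in SCA males, with overlap. The glutamate list had a median of 0.04 over 56 genes, with 3 lower and 1 higher at an unadjusted p under 0.05 and 0 without overlap. Those 3, also named after values were seen, serve glutamate uptake and recycling in astroglia. They were the carriers SLC1A3 (ENSDARG00000043148) at -1.41 ± 0.53 and SLC1A2 (ENSDARG00000102453) at -0.23 ± 0.09, and glutamine synthetase, GLUL (ENSDARG00000099776), at -0.18 ± 0.08.

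The monoamine list had a median of -0.10 over 57 genes, which was -0.04 without PH 12. At an unadjusted p under 0.05, 1 gene was higher and 2 were lower, and 3 were higher and 1 lower without overlap. DRD3, a dopamine receptor gene, was higher and GCH1, which makes the cofactor of dopamine and serotonin synthesis, lower. DRD3 had 21.1, 16.3, 18.2 and 19.6 CPM in PH males, against 12.5, 10.1, 15.2 and 12 in SCA males, a log2 fold change of 0.60 ± 0.20. GCH1 differed by -0.50 ± 0.19. The synaptic vesicle and active zone list had a median of -0.04 over 47 tested genes, 28 of them below 0, and of 0.06 without PH 12. Its 2 members past an unadjusted p of 0.05 were both higher without overlap. Of these pclob, a scaffold of the active zone, differed by 0.16 ± 0.06, and by 0.21 ± 0.06 in females. The other, rims2b, an active-zone scaffold, differed by 0.33 ± 0.12, but by 0.21 without PH 12.

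Ribosomal protein genes had higher means, most of all in PH 12. Of 44 tested genes of the large subunit 43 had fold changes above 0, with a median of 0.14, and of 35 of the small subunit 33 did, with a median of 0.15. Scores for the large subunit were 0.39, -0.18, 0.16 and -0.08 in PH males, against -0.10, 0.05, -0.15 and -0.03 in SCA males. The groups overlapped, and without PH 12 both medians were 0.03. In F0 females the medians were -0.08 for the large and -0.07 for the small subunit. There 6 of the 44 and 4 of the 35 genes had fold changes above 0. The 13 protein genes of the mitochondrial genome all had fold changes above 0, with a median of 0.13 that was 0.06 without PH 12. MT-ND2, a subunit of respiratory complex I, had 6398, 5073, 4759 and 4569 CPM in PH males, against 4569, 4398, 4558 and 4404 in SCA males, a log2 fold change of 0.21 ± 0.09 and of 0.11 without PH 12. Its lowest PH value and its highest SCA value are equal at the digits shown.

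**Figure D4:**
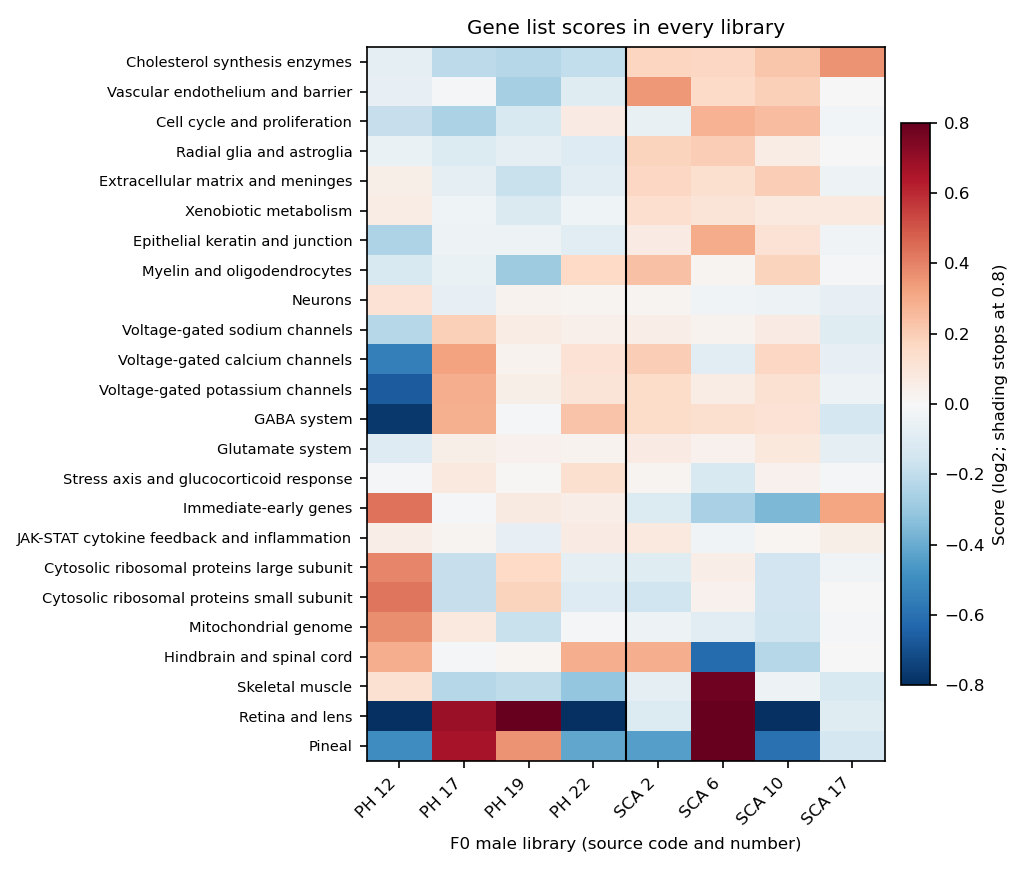
Score of 24 gene lists in each F0 male library, the median over tested members of log2 CPM minus the mean of the 8 males (colour, shading stopped at 0.8), with exposed males (PH) left of the line and control males (SCA) right of it. The top row, sterol synthesis, runs from -0.23 to -0.07 in PH males and from 0.17 to 0.36 in SCA males. PH 12 is low for channels and GABA genes and high for ribosomal genes. SCA 6 is high for muscle genes, and SCA 6, PH 19 and PH 17 are high for retina and lens genes.

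Transcripts of tissues other than brain differed by fish. Over 47 tested genes of skeletal muscle the median was -0.28, with 11 lower and 2 higher at an unadjusted p under 0.05 but 0 lower without overlap. The score of SCA 6 was 0.78, while the other 7 males lay between -0.31 and 0.12. Summed muscle transcripts were 982 to 1093.5 CPM in PH males and 1019 to 2253 in SCA males, with 0 of 87 listed genes at 0 in every male library. Without SCA 6 the median was 0.02 and the counts at that p were 2 lower and 1 higher. pvalb1, a muscle parvalbumin named after values were seen, was at 81.0 CPM in SCA 6 and at 0.126 to 1.35 CPM in PH males and 0.388 to 2.79 in the other SCA males. Retina and lens genes had scores of -1.47, 0.69, 1.52 and -1.29 in PH males, against -0.11, 1.79, -0.90 and -0.10 in SCA males, a spread between fish within each group that exceeds any difference between the groups. The list's median of -0.22 was 0.75 without SCA 6, and 6 of its 92 listed genes were at 0 in every male library.

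Markers of brain regions were read as well. Those of hindbrain and spinal cord had the highest median of all lists, 0.32 over 31 tested genes, with 27 above 0, yet at an unadjusted p under 0.05 there were 0 higher and 1 lower. Scores were 0.29, -0.01, 0.02 and 0.29 in PH males, against 0.29, -0.61, -0.23 and 0.00 in SCA males, and without both PH 12 and SCA 6 the median was 0.11. Hypothalamic markers had a median of -0.15 over 33 genes, which was -0.24 without PH 12 and -0.25 without SCA 6, with TBX2 (ENSDARG00000018025) and TBX3, transcription factors of the tuberal hypothalamus, at -1.25 ± 0.43 and -0.73 ± 0.33 without overlap. Females had 0.45 ± 0.43 and 0.41 ± 0.34 for these genes. Telencephalon, tectum and cerebellum lists had medians from -0.05 to 0.02. Single regional factors without overlap were SOX14 (ENSDARG00000111969) of the thalamus at -1.14 ± 0.33 and TLX3 (ENSDARG00000100401) of the hindbrain at -0.66 ± 0.22. So was EOMES (ENSDARG00000104243) of the telencephalon at -0.70 ± 0.25, a gene that the cerebellum list holds too. Whether the share of regions in each brain contributed to the other differences was not tested.

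**Figure D5:**
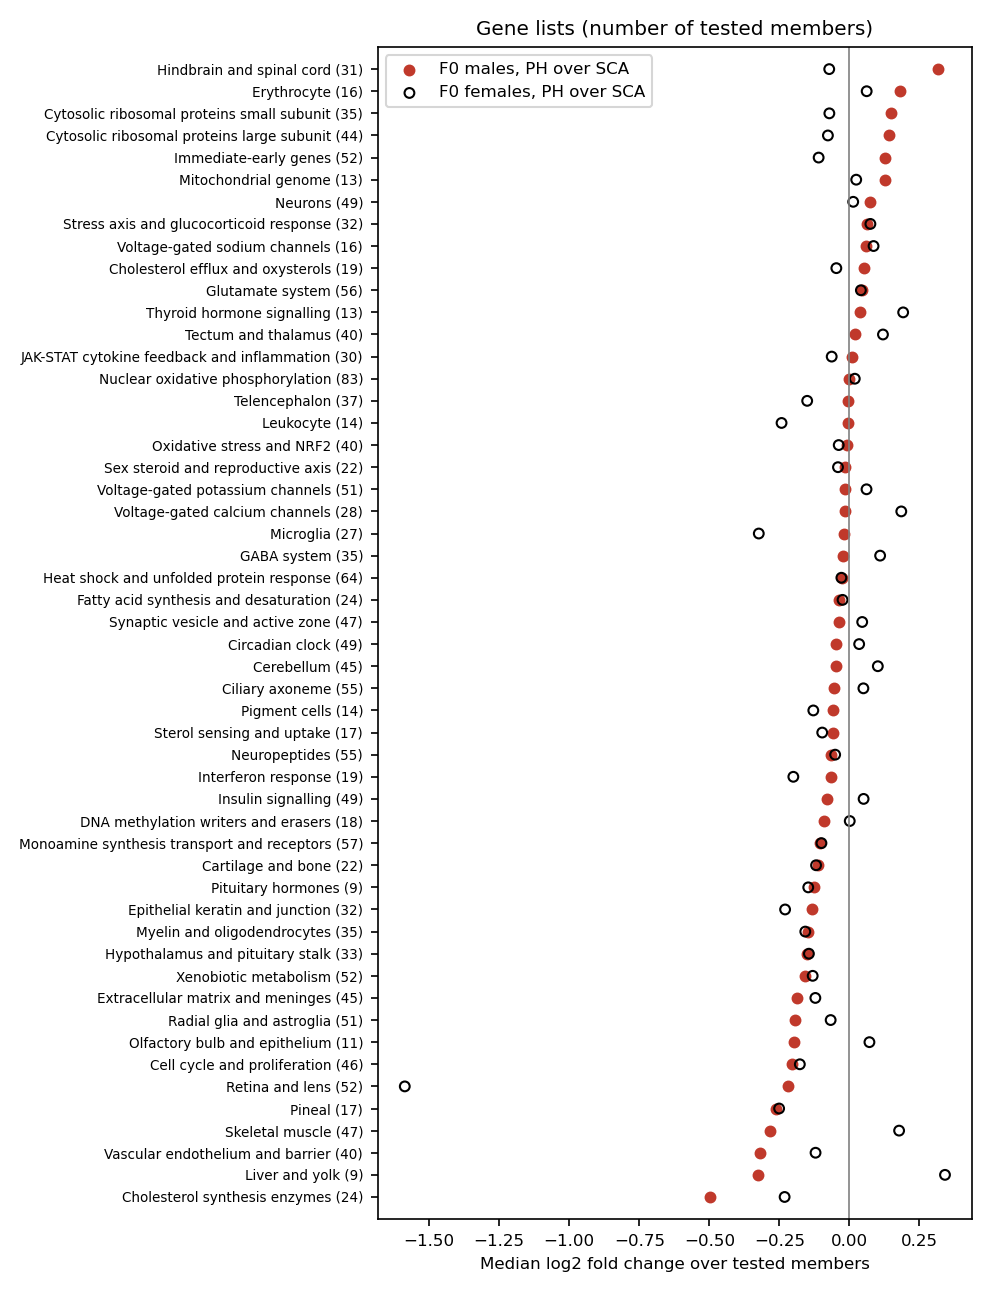
Median log2 fold change of exposed (PH) over control (SCA) fish for 52 gene lists in F0 males (filled points) and F0 females (open points), with the number of tested members in parentheses. Sterol synthesis is lowest in males at -0.50, and hindbrain markers are highest at 0.32. The female point at -1.59 is the retina and lens list.

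Of the 52 lists, 38 had medians below 0 and 14 above in males. In 6 lists the scores of the exposed males all lay below those of the control males, and in 0 lists all above. The 6 were sterol synthesis, fatty acid synthesis, xenobiotic metabolism, vascular endothelium, epithelial genes and radial glia. For fatty acid synthesis the highest PH and the lowest SCA score were both -0.02, and for epithelial genes they were -0.04 and -0.03. For vascular endothelium they were -0.01 and 0.0004, for xenobiotic metabolism 0.06 and 0.08, and for radial glia -0.05 and -0.005. Sterol synthesis had the widest gap, with -0.07 as the highest PH score and 0.17 as the lowest SCA score. In F0 females the scores of all 6 lists overlapped, though the median of xenobiotic metabolism was -0.13, near the -0.16 of males. Lists without a paragraph of their own had medians from -0.33 in liver and yolk genes to 0.18 in erythrocyte genes, and none had more than 4 genes past an unadjusted p of 0.05 in a direction. Without PH 12 these medians were -0.08 for liver and yolk genes and 0.02 for erythrocyte genes. They included thyroid signalling at 0.04, nuclear genes of oxidative phosphorylation at -0.00, neuropeptides at -0.07, insulin signalling at -0.08 and DNA methylation enzymes at -0.09. Among the methylation enzymes dnmt3bb.3, a de novo methyltransferase, differed by -0.53 ± 0.19 without overlap.

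Genes of the circadian clock had a median of -0.05 over 49 tested genes, with 1 higher and 1 lower at an unadjusted p under 0.05. cry3a, a cryptochrome repressor, had 448, 329.7, 339 and 332 CPM in PH males, against 231, 287, 325 and 226 in SCA males, a log2 fold change of 0.44 ± 0.12 (adjusted p = 0.734 in edgeR) and of 0.33 without PH 12. Females differed alike, by 0.56 ± 0.12. nr1d4b, of the REV-ERB family of clock receptors, differed by -0.74 ± 0.25. In both genes the groups did not overlap, and SCA 10, at 325 CPM of cry3a, came close to the exposed males.

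Iron and redox genes gave further members without overlap. SLC40A1, the iron exporter ferroportin, had 63.3, 66.1, 57.3 and 62.9 CPM in PH males, against 73.8, 81.8, 93.0 and 70.8 in SCA males, a log2 fold change of -0.36 ± 0.08 (adjusted p = 0.663 in edgeR) and of -0.26 ± 0.08 in females. HMOX1, heme oxygenase, had 1.2, 1.11, 2.41 and 2.65 CPM in PH males, against 2.77, 3.61, 4.85 and 2.85 in SCA males. GSR, glutathione reductase, had 9.30, 9.34, 8.39 and 7.07 CPM in PH males, against 5.91, 5.60, 4.85 and 5.31 in SCA males, a log2 fold change of 0.65 ± 0.21, while females lay at -0.33 ± 0.20. The oxidative stress list as a whole had a median of -0.01 over 40 genes. CANX, a chaperone of the endoplasmic reticulum, differed by -0.28 ± 0.08 without overlap, in a list of heat shock and unfolded protein genes with a median of -0.03 over 64.

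The difference itself between the sexes was tested in the same fit. The male minus female difference had 0 genes called (0%) with edgeR, a smallest adjusted p of 0.998, and 579 genes at an unadjusted p under 0.05 (3.2%). In F0 females, 0 genes were called by edgeR (0%), 15 by DESeq2, and 32 by edgeR when all 48 libraries were fitted together. For prss56 the male minus female difference in log2 fold change was 2.13 ± 0.47, for SOCS3 (ENSDARG00000025428) 1.94 ± 0.49, for SMO -0.73 ± 0.20 and for RFX4 -0.83 ± 0.28, none of them past adjustment. Of the 1096 male genes at an unadjusted p under 0.05, 760 had the same sign in females. The share with the same sign over all tested genes was not computed, so this count has no background. Of the 609 male genes without overlap, 31 did not overlap in the same direction in females, and 8 did so in the opposite direction. Those 31 were 5.09% of the 609 male genes and 5.13% of the 604 female genes without overlap. Both totals are out of 18081 tested genes. The sharing to be had from unrelated lists of these sizes was not computed, so neither percentage is a background.

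Set against all 12 other F0 libraries, PH males lay beyond them in few genes. All 4 PH males were above every other F0 library in 21 genes and below in 16. All 4 SCA males were above every other F0 library in 54 genes and below in 38. Female groups gave 20 and 16 for PH females and 71 and 46 for SCA females. All these counts are out of 18081 tested genes. SCA males were on lane 2 and all other F0 libraries on lane 4, and the part of lane in these counts was not tested.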

How the data were processed

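Whole-brain RNA of 48 zebrafish was sequenced. Tables of read counts per Ensembl gene, not normalised, were deposited by the authors, 1 per library, with 32520 genes and 5 summary lines that were left out of library sizes and tests. Reads were handled with STAR 2.7, HTSeq 0.11.2 and DESeq2 1.24.0 and the builds named are GRCz11 and danRer11, per the submitters' processing notes, which assign no role to them here. No source used here gives the strand setting of the counting, so antisense and overlapping genes cannot be told apart. Of all reads, 32.3 to 34.0% were counted in genes in the 8 F0 male libraries. The replicate numbers are the numbers in the source codes.

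From these counts, all 16 F0 libraries were fitted in edgeR 4.0.16 (R 4.3.3) with 4 group means, TMM scaling, filterByExpr and the robust quasi-likelihood test, which left 12 residual degrees of freedom. Of the 32520 genes, 18081 passed the filter and 14439 did not. The contrasts were PH minus SCA in males, the same in females, and their difference, with Benjamini-Hochberg adjustment over all tested genes and a threshold of 0.05. The common biological coefficient of variation was 23.3%. Fold changes are log2 of PH over SCA with a prior count, and CPM used TMM-scaled library sizes. Scores and distances between libraries used log2 CPM with a prior count of 2. DESeq2 1.42.0, limma voom 3.58.1, DESeq2 size factors, upper-quartile scaling, no filter, a filter of 1 CPM in 4 libraries, no robust step, males alone, all 48 libraries, each library left out, and PH 12 and SCA 6 left out together were tried as alternatives. The fitting code was tested on simulated data. Each SE is the absolute log2 fold change divided by the square root of the quasi-likelihood F statistic, so it includes the spread between fish. Counts of 0 carry no interval.

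The 52 gene lists, 2163 of whose 2388 entries matched a gene, and all members and rules were chosen with earlier results of these data known. Gene symbols came from a supplied name table, which named 29201 of the 32520 identifiers, in capitals where a human symbol was given. The text names, among genes with a proper symbol, at least 1 CPM on average and no overlap between the groups, the 12 of smallest p in each direction, the 6 of largest fold change in each direction at an unadjusted p under 0.01, and up to 4 per list at an unadjusted p under 0.05. It also names all calls of DESeq2 or limma voom, and tested sterol synthesis enzymes and sodium channel genes. A few genes that meet these rules enter the counts and list values but are not reported here by name. Other genes are marked as named after values were seen. Lanes were read from the deposited files' names.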

Additional observations from a re-analysis of the deposited data

Results flagged for a closer look

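Of 164 groups of 4 libraries examined, 14 held a library far from the other 3 (Dixon's test at the 95% level), where chance alone gives about 1 in 20. Library PH 12 accounted for 5 of the 14 and SCA 6 for 2.

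PH 12 had a count in 22943 genes, against 23287 to 23356 in the other PH males, and SCA 10 in 23655, against 23508 to 23532 in the other SCA males. PH 12 had 11.24 CPM of ACSL4 (ENSDARG00000010752), against 6.51 to 7.2 in the other PH males. It had 4.048 CPM of RFX4, against 7.074 to 7.616, and 7.796 CPM of SMO, against 10.86 to 11.43, in the same fish. SCA 17 had 12.94 CPM of SMO, against 17.23 to 17.8, and 25.24 CPM of AOC3, against 37.48 to 39.9, in the other SCA males. SCA 6 had 108.4 CPM of SPARC, against 79.55 to 83.51.

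Among list scores, PH 12 stood at -0.1034 for the glutamate system, PH 17 at -0.1257 for oxidative stress genes and PH 22 at 0.06561 for DNA methylation enzymes, each apart from the other PH males. SCA 17 stood at -0.1433 for the GABA system, SCA 6 at 0.7764 for skeletal muscle and SCA 2 at -0.1025 for leukocyte genes, each apart from the other SCA males.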

How the results depend on the processing

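The count of 0 called male genes was 11 with DESeq2 and 0 with limma voom, and leaving out single libraries gave 0 to 1 (the 1 call came without PH 17). In F0 females the count of 0 was 15 with DESeq2 and 32 with all 48 libraries in the fit. Male genes at an unadjusted p under 0.05 numbered 1096, and 719 without PH 12 and SCA 6 together. Male genes without overlap numbered 609, and 1751 without both libraries and 981 to 1668 without single ones, since fewer libraries separate more easily; the highest came without SCA 17. Beyond the values above, the cause of these shifts was not tested. Of the 52 list medians, 29 took the other sign under at least 1 setting. The retina and lens median ranged from -0.95 to 1.06, the pineal one from -0.50 to 0.84, and immediate-early genes from -0.04 to 0.32. MT-ND2, rims2b, tsc22d3 and GADD45A (ENSDARG00000104571) had smaller fold changes without PH 12, at 0.11, 0.21, 0.38 and 0.34, and col1a1a and COL1A2 without SCA 6, at -0.48 and -0.35. No paired analysis was possible because PH and SCA males share 1 source number, 17, which the labels do not tie to a common origin. Genes of few reads, such as prss56, limit the precision, and lane and group cannot be told apart among F0 males.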
